A study of Homo sapiens with 4 samples.

Results

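Human chromosome 19 carries the densest collection of ZNF genes in the genome, and 225 of them were measured here in A549, a cell line derived from a human lung adenocarcinoma. They made up 1.05% of the probe sets on the array, and RefSeq lists 240 protein-coding genes of this name type on the chromosome. The members were every probe set that the platform places on chromosome 19 (identifier beginning with TC19) and whose single gene symbol is ZNF followed by digits, out of 21448 probe sets in all. Each gene had 1 such probe set. The rule used the names and the chromosome and no measured value, though it was set with earlier results of these data known. The series held 4 arrays of total RNA in 2 groups. The first group, of 2 arrays, came from A549 cells with a short hairpin RNA against LDOC1 and with H2BK120R, a mutant of histone H2B in which an arginine stands in place of the lysine that normally receives ubiquitin. The second, also of 2 arrays, came from A549 cells with the same hairpin and a control vector. All 4 samples were thus LDOC1-depleted by their labels, and per the labels' protocols all sublines grew in medium with serum and puromycin. No array came from cells with an added unmutated H2B or with intact LDOC1, so the mutation and the presence of extra histone cannot be told apart. The labels do not say whether a line was 1 clone, or whether the replicates were separate cultures, so a p-value here reflects only how these arrays vary, and that variation may be technical.

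Most ZNF genes of chromosome 19 encode DNA-binding proteins with tandem C2H2 zinc fingers, and many also carry a KRAB domain. The KRAB domain recruits the scaffold protein TRIM28, which brings in the histone methyltransferase SETDB1 and HP1 proteins, and together they lay down H3K9 trimethylation and silence the bound DNA, often a retrotransposon. The genes arose by repeated tandem duplication, so they lie side by side in runs of close relatives. Monoubiquitylated H2B (H2Bub1) marks transcribed gene bodies, and the submitters' design text states that depletion of LDOC1 raised it and the mutant histone lowered it. The comparison addressed here is which of these genes differed in level once the mutant was present. H2Bub1 itself was not measured on the arrays.

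The arrays had median levels between 6.40 and 6.43 on the log2 scale, and their Pearson correlations over all probe sets lay between 0.990 and 0.994. Vector replicate 1 stood somewhat apart: the standard deviation of its difference from another array was 0.45 to 0.49, against 0.38 to 0.40 for the pairs without it. Over the members these values were 0.44 to 0.49 and 0.36 to 0.38. LDOC1 itself was at 8.37 and 8.66 with H2BK120R, against 8.0 and 8.33 with the vector, a difference of 0.35 ± 0.23 (limma standard error, adjusted p = 0.790). Since the hairpin is in all 4 samples, the LDOC1 level is no check of the depletion. Of the listed A549 and epithelial markers, KRT8 and ALDH1A1 lay above 17 on the log2 scale on every array, while EPCAM did not pass 5.76 on any. The levels of the 9 markers summed to 116.59 and 117.22 with H2BK120R, against 116.27 and 117.42 with the vector, so the groups overlapped. Single markers went different ways: CDH1 was at 11.24 and 11.20 with H2BK120R, against 10.55 and 10.69 with the vector, a difference of 0.60 ± 0.15 (limma adjusted p = 0.650), and KRT19 differed by -0.47 ± 0.28. Their part in the members' values was not tested. The 5 listed markers of alveolar type II cells all lay in the range of olfactory receptor genes, most of which are little expressed outside the olfactory epithelium. The same held for 2 of 4 measured leukocyte markers, 2 of 4 fibroblast markers and 4 of 5 endothelial markers.

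Promoter sequences show how alike neighbouring members are and where they differ. RefSeq (GRCh38.p14) gave a window of 300 bases, 250 before to 50 after the transcription start, for 197 of the 225 members, and the first was taken for the 32 with several. ZNF91 and ZNF681, named among the higher genes further on, and their relative ZNF708 are printed because they show a promoter type shared by a run of neighbours. ZNF229, the member with the smallest p on the lower side, and ZNF146, the brightest member, are printed for contrast. Capitals mark the 10-base word TCCAATCAGG, which contains a CCAAT box and reads CCTGATTGGA on the other strand. They also mark an ETS-type site with the letters CCGGAAG, searched on both strands.
ZNF91, chr19:23395422-23395721, minus strand: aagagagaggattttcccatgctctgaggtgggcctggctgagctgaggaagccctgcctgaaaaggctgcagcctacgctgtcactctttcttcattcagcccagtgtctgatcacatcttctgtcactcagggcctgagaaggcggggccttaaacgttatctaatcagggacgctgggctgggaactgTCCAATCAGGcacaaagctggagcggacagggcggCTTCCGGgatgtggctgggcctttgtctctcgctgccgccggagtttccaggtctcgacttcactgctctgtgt
ZNF681, chr19:23758842-23759141, minus strand: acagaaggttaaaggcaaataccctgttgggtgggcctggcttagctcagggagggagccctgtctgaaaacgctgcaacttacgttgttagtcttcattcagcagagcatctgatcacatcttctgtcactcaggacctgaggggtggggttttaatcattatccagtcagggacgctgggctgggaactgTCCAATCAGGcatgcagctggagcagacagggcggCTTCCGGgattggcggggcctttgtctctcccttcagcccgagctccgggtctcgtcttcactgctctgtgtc
ZNF708, chr19:21329361-21329660, minus strand: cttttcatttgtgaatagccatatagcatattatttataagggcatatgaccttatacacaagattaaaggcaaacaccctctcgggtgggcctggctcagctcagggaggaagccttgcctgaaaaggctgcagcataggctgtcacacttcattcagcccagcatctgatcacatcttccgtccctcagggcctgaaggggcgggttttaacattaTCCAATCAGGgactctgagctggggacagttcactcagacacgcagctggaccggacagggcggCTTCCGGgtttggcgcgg
ZNF229, chr19:44448423-44448722, minus strand: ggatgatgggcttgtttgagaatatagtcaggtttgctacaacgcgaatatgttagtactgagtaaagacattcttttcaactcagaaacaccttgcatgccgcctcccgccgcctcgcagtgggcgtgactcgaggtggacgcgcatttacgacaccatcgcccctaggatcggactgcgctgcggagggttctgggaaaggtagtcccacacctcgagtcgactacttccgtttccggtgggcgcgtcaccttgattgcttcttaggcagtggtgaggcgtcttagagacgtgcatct
ZNF146, chr19:36214856-36215155, plus strand: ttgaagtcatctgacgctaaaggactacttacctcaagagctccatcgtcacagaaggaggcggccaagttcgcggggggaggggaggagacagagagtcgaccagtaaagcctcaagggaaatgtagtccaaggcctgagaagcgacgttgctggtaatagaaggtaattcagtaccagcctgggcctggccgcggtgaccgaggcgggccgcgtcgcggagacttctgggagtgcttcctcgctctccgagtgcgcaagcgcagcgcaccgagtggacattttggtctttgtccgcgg
The first 3 promoters each held the 10-base word and the ETS-type site once, and the other 2 held neither.

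The 10-base word was the one whose share in the members' promoters most exceeded its share in all promoters, so it was chosen from these sequences. It occurred on either strand in 41 of 197 members' promoters (20.8%), against 0.498% of the promoters of all 14250 genes with a probe set and 5.41% of 185 promoters of ZNF genes on other chromosomes. All 41 lay in 3 runs of neighbours: 24 of 26 promoters in the run from ZNF101 to ZNF254, 14 of 23 in the run from ZNF627 to ZNF791, and 3 of 5 in the run from ZNF554 to ZNF77. The other runs with promoters held none. The shorter CCAAT box, which the word contains, was present in 52.8% of members' promoters and 36.4% of all. For ZNF genes on other chromosomes its share was 43.2%. The ETS-type site was present in 43.7% of members' promoters, against 14.3% of all and 37.3% for ZNF genes on other chromosomes. A TATA box (TATAAA) was present in 2.03% of members' promoters against 9.41% of all, and a GC box (GGGCGG) in 69.0% against 59.5%. For ZNF genes on other chromosomes these shares were 4.32% and 60%. The ZNF91 promoter shared a median of 14.9% of its 12-base words with the 25 other promoters of its run, a median of 0 with the 171 other members' promoters and a median of 0 with 14053 promoters of other genes. The number of CG dinucleotides had a median of 20 in members' promoters and 22 in all, and its Spearman correlation with the level across the 197 members was 0.02. These matches describe letters in the reference and do not show binding.

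The levels of the members were concentrated in the middle of the range. Averaged over the 4 arrays, a member had a median level of 6.66 with quartiles of 5.15 and 8.61, where all probe sets had a median of 6.41 with quartiles of 4.16 and 9.63. The standard deviation across members was 2.44, against 3.37 across all probe sets. Of the 225, 164 members (72.9%) lay in the range that holds the middle 50% of all probe sets, 29 (12.9%) below it and 32 (14.2%) above it. Only 5 members, or 2.22%, reached the brightest 10% of all probe sets. By array the median of the members was 6.75 and 6.76 with H2BK120R, against 6.55 and 6.80 with the vector, so the groups overlapped. The share above the array's median over all probe sets was 55.6% and 55.1% with H2BK120R, against 53.3% and 55.1% with the vector. A level on this platform depends on how well the probes of a set bind as well as on the amount of transcript, so levels of different genes are described together as a distribution and are not a ranking of abundance.

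The same narrow distribution was seen for ZNF genes elsewhere in the genome, at a somewhat higher level. The 223 ZNF genes of other chromosomes had a median of 7.44, quartiles of 5.56 and 9.10 and a standard deviation of 2.48, and 64.1% of them lay above the median of all probe sets, against 53.8% of the members. The 1031 other named genes of chromosome 19 had a median of 5.98 and a standard deviation of 3.31, and 10.3% of them were at 12 or more, against 2.22% of the members. Olfactory receptor genes served to place the low end of the scale: the 348 measured had a median of 3.44 and a 95th percentile of 5.17. At or below that value lay 57 members (25.3%), and 168 lay above it. No test was made of these differences between gene sets.

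**Figure D1:**
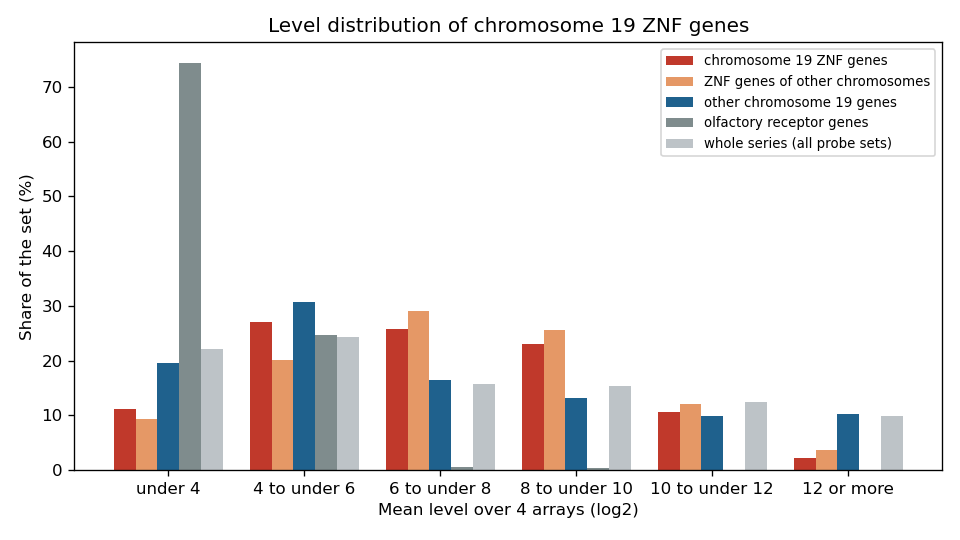
Share of each gene set (vertical axis, %) by mean level over the 4 arrays (horizontal axis, log2, in 6 ranges). Bars stand for the 225 chromosome 19 ZNF genes, the ZNF genes of other chromosomes, other chromosome 19 genes, olfactory receptor genes and all 21448 probe sets. Of the members 27.1%, 25.8% and 23.1% lie in the ranges from 4 to 6, 6 to 8 and 8 to 10, and 74.4% of olfactory receptor genes lie under 4.

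The brightest member was ZNF146, which encodes a protein made almost only of zinc fingers, without a KRAB domain, and known to be overexpressed in colorectal and pancreatic tumours. It was at 14.83 and 14.90 with H2BK120R, against 14.66 and 14.80 with the vector. Both arrays with the mutant were the higher ones, by a difference of 0.13 ± 0.11 (limma adjusted p = 0.829). ZNF507 was at 13.14 and 13.19 with H2BK120R, against 12.98 and 12.91 with the vector. ZNF460 was at 13.11 and 13.12 with H2BK120R, against 12.65 and 13.16 with the vector. These groups overlapped for ZNF460 and not for ZNF507. The other 7 of the 10 brightest were ZNF121, ZNF526, ZNF417, ZNF254, ZNF480, ZNF134 and ZNF283, with mean levels from 11.57 to 12.31. The 5 dimmest were ZNF486, ZNF536, ZNF560, ZNF541 and ZNF784, with means between 2.50 and 3.08, within the range of olfactory receptor genes. ZNF404 tied with ZNF784 at 3.08. ZNF536 is known as a repressor of neuronal differentiation and ZNF541 acts in meiosis of male germ cells in the mouse.

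None of the members passed the test between the groups. In an RNA extract of a whole culture, fewer cells of a type and less RNA per cell cannot be told apart. Over all 21448 probe sets, limma with Benjamini-Hochberg adjustment gave 0 calls at an adjusted p of 0.05 (0% of probe sets), and the smallest adjusted p of a member was 0.678. Without adjustment 16 members (7.11%) had a p under 0.05 in limma, against 6.7% of all probe sets. Of these 9 were higher with H2BK120R (3.62% of all probe sets were) and 7 were lower (3.08% were), so the members' share was near the background. Beyond 1.5-fold lay 17 members (7.56%), against 7.03% of all probe sets, 9 of them higher and 8 lower (3.1% and 3.93% of all probe sets). The one member beyond 2-fold was ZNF91, against 0.597% of all probe sets. The median standard error of a member's difference was 0.28 and its 95% confidence interval reached 0.61 to either side at the median, and for ZNF146, the member with the narrowest interval, 0.237. For a single gene the smallest two-sided p that an exact permutation of 2 and 2 arrays allows is 0.333.

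ZNF91 had the smallest p of the members. It encodes a KRAB zinc finger protein known to silence SVA retrotransposons in primates. It was at 6.42 and 6.85 with H2BK120R, against 5.49 and 5.71 with the vector. Both arrays with the mutant lay above both vector arrays, and the difference was 1.03 ± 0.29 (limma standard error, adjusted p = 0.678). With 1 array left out it lay between 0.82 and 1.25. ZNF558, known to repress SPATA18 in human neural progenitors, was at 7.65 and 7.46 with H2BK120R, against 6.50 and 6.98 with the vector. Its difference was 0.81 ± 0.27 (limma adjusted p = 0.693), and the groups did not overlap. The difference was 0.575 without vector replicate 1 and 1.055 without vector replicate 2.

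The remaining 10 of the 12 members named on the higher side had both arrays with the mutant above both vector arrays by the rule that chose them. ZNF221 was at 7.86 and 7.82 with H2BK120R, against 7.09 and 7.39 with the vector, a difference of 0.60 ± 0.24. Without vector replicate 1 its difference was 0.45. ZNF681, a neighbour of ZNF91, was at 6.52 and 6.67 with H2BK120R, against 5.34 and 6.30 with the vector. Its difference of 0.78 ± 0.34 was 0.29 without vector replicate 1, the lowest of its arrays. ZNF582, whose promoter is known to be methylated in cervical and oral tumours, was at 5.63 and 5.95 with H2BK120R, against 4.51 and 5.56 with the vector. Its difference of 0.76 ± 0.37 was 0.23 without vector replicate 1, which was again the lowest array. ZNF331, an imprinted gene known from rearrangements in thyroid adenomas, was at 8.87 and 9.54 with H2BK120R, against 8.58 and 8.78 with the vector. Its difference of 0.53 ± 0.24 was 0.19 without H2BK120R replicate 2, the higher of its arrays. ZNF888 lay low, at 4.94 and 5.08 with H2BK120R and 4.25 and 4.28 with the vector, within the range of olfactory receptor genes. The other 5 were ZNF880, ZNF611, ZNF490, ZNF57 and ZNF850, with differences from 0.33 to 0.61. Without vector replicate 1 those of ZNF490, ZNF57 and ZNF850 were 0.22, 0.21 and 0.20, against 0.37, 0.45 and 0.33 with all arrays. The limma adjusted p-values of these 10 genes ran from 0.745 to 0.750.

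On the lower side the smallest p belonged to ZNF229, which was at 6.88 and 7.12 with H2BK120R, against 7.94 and 7.52 with the vector. Both arrays with the mutant were below both vector arrays, by a difference of -0.73 ± 0.26 (limma adjusted p = 0.722). That difference was -0.52 without vector replicate 1. ZNF530 was at 8.42 and 8.24 with H2BK120R, against 9.20 and 8.59 with the vector, a difference of -0.57 ± 0.24. Without vector replicate 1 it was -0.26. ZNF211 was at 7.21 and 7.54 with H2BK120R, against 7.89 and 7.97 with the vector, and ZNF574 was at 10.34 and 10.35, against 10.54 and 11.00. The groups did not overlap for either gene. For ZNF574 the difference of -0.42 was -0.20 without vector replicate 2. ZNF526, the brightest gene on this side, was at 11.83 and 11.95 with H2BK120R, against 12.27 and 12.11 with the vector, a difference of -0.30 ± 0.14. ZNF583 and ZNF551 differed by -0.60 ± 0.29 and -0.35 ± 0.20, and that of ZNF583 was -0.34 without H2BK120R replicate 1. The other 5, ZNF491, ZNF878, ZNF709, ZNF439 and ZNF671, had mean levels between 3.53 and 4.24, all within the range of olfactory receptor genes, and differences from -0.82 to -0.58. For ZNF439 the difference was -0.22 without H2BK120R replicate 2. The limma adjusted p-values of the 12 genes ran from 0.722 to 0.767.

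**Figure D2:**
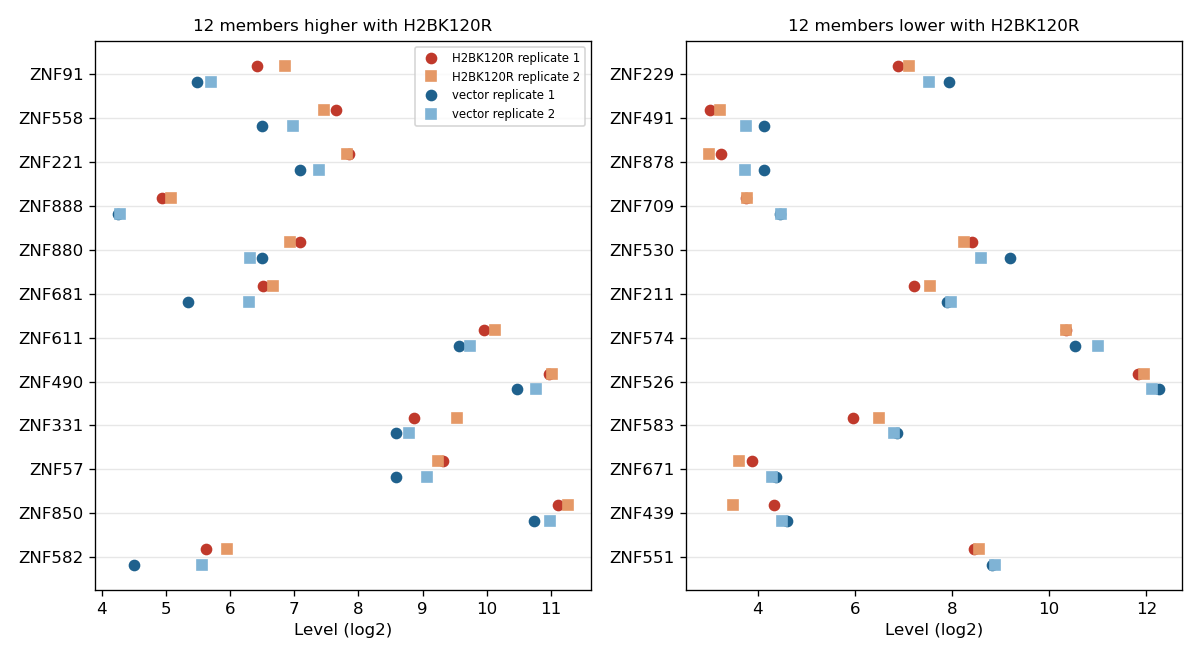
Level (horizontal axis, log2) on each of the 4 arrays for the 12 members with the smallest p on the higher side (left) and on the lower side (right) whose groups did not overlap. Points stand for arrays, with H2BK120R in red and orange and vector in dark and light blue. ZNF91 shows H2BK120R arrays at 6.42 and 6.85 and vector arrays at 5.49 and 5.71.

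Members listed for a known role at repeats, other than ZNF91, had differences between -0.11 and 0.28. ZNF93, which silences LINE-1 elements, was at 6.0 and 6.15 with H2BK120R, against 5.70 and 6.07 with the vector. ZNF765 and ZNF649, which also bind LINE-1 sequences, had differences of 0.19 ± 0.26 and 0.22 ± 0.34. ZNF765 was at 6.75 on both arrays with the mutant, against 6.55 and 6.57 with the vector, so its groups did not overlap, while those of ZNF93 and ZNF649 did. ZNF808, whose loss in humans causes absence of the pancreas and which binds MER11 repeats, was at 6.99 and 6.74 with H2BK120R, against 7.04 and 6.92 with the vector. ZNF616, on the same list, differed by 0.28 ± 0.25, or 0.18 without vector replicate 2. None of these passed the test, with limma adjusted p-values from 0.852 to 0.943.

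The members with known roles in gene silencing and tumours were likewise not called. ZNF274, which recruits SETDB1 to the 3' ends of ZNF genes, was at 5.64 and 5.21 with H2BK120R, against 4.76 and 5.88 with the vector. The vector arrays lay on either side of those with the mutant. ZNF304, a KRAB zinc finger repressor, was at 7.34 and 7.43 with H2BK120R, against 7.53 and 7.28 with the vector. ZNF350, a BRCA1 partner, and ZNF224, a cofactor of WT1, differed by 0.09 ± 0.24 and 0.32 ± 0.18. For ZNF224 the arrays were at 10.39 and 10.79 with the mutant, against 10.31 and 10.24 with the vector, and did not overlap, but the difference was 0.115 without H2BK120R replicate 2. ZNF154, ZNF671 and ZNF382, whose promoters are known to be methylated in tumours, had mean levels of 3.98, 4.04 and 4.51, within the range of olfactory receptor genes. ZNF114, ZNF175 and ZNF45 differed by 0.22 ± 0.20, 0.11 ± 0.21 and 0.11 ± 0.26, and that of ZNF114 was 0.025 without H2BK120R replicate 2. Of the 18 members with a known role, ZNF91 was the only one with an unadjusted p under 0.05, a share no higher than the 6.7% of all probe sets.

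The members as a set leaned slightly towards higher levels with H2BK120R. Their median difference was 0.08, against 0.00 over all probe sets, 0.02 over ZNF genes of other chromosomes and -0.04 over the other genes of chromosome 19. Of the members 139 were higher and 86 lower, that is 61.8% higher, against 49.9% of all probe sets, 52.9% of ZNF genes of other chromosomes and 44.5% of the other chromosome 19 genes. The 348 olfactory receptor genes, mostly near the low end of the scale, leaned the other way. Their median difference was -0.11, with 132 higher and 216 lower (37.9% higher), so a lean of this size was not particular to the members. Both arrays with the mutant lay above both vector arrays for 53 members (23.6%), against 18.6% of all probe sets, and below both for 28 (12.4%), against 17.9%. Either kind of separation was seen for 81 members (36.0%), against 36.5% of all probe sets. Members are not replicates of a condition, so no test was made of this lean.

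The lean was not equally carried by the arrays. Averaged over the members, the deviation from each gene's mean was -0.01 and 0.06 with H2BK120R, against -0.07 and 0.02 with the vector. By this mean H2BK120R replicate 1 lay below vector replicate 2, and the groups overlapped. The median deviations were 0.01 and 0.08 with H2BK120R, against -0.09 and 0.0075 with the vector, and did not overlap, with H2BK120R replicate 1 and vector replicate 2 almost level. Without vector replicate 1, 122 members (54.2%) were higher, against 50.8% of all probe sets, and the median difference was 0.03. Without H2BK120R replicate 2, 125 were higher (55.6%, against 50.4%), with a median of 0.04. Vector replicate 1 also differed at the low end of the scale: olfactory receptor genes deviated there by 0.14 on average, against values below 0 on the other 3 arrays, and its spread over all probe sets was the narrowest, with a standard deviation of 3.33 against 3.37 to 3.42. The part of this in the members' lean was not tested. Among the 168 members above the range of olfactory receptor genes, 115 were higher and 53 lower, with a median difference of 0.10. Among the 57 within it the median was -0.07. How all probe sets above and within that range split was not computed, and their median also moved with the level. Without the dimmest 25% of probe sets the median was 0.09 over 196 members, against 0.015 over all probe sets left. Without the dimmest 50% of probe sets the median was 0.10 over 121 members, against 0.03 over all probe sets left.

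The members formed runs of neighbours along the chromosome. In the order of protein-coding genes in RefSeq, with at most 3 other genes between neighbours, 199 members fell into 11 runs of 5 or more and 26 lay outside them. The 6 runs with at least 20 members held 168. Median levels differed between runs. The run from ZNF565 to ZNF573, which includes ZNF146, had a median level of 8.52, and the run from ZNF264 to ZNF8 one of 8.16. The run from ZNF627 to ZNF791 had the lowest median of the 6, at 5.33, with 12 of its 24 members in the range of olfactory receptor genes. The runs from ZNF283 to ZNF180, from ZNF577 to ZNF331 and from ZNF101 to ZNF254 had medians of 7.53, 6.20 and 6.12.

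The run from ZNF101 to ZNF254, which holds ZNF91, ZNF93 and ZNF681, had 28 of 33 members higher with H2BK120R and 5 lower, with a median difference of 0.12, where 49.9% of all probe sets were higher. Its members ranged from -0.41 for ZNF492 to 1.03 for ZNF91. The arrays deviated on average by 0.09 and 0.11 with H2BK120R, against -0.22 and 0.02 with the vector, so the groups did not overlap and vector replicate 1 was the low one. Without it 22 of 33 were higher and the median was again 0.12. Leaving out H2BK120R replicate 2 also gave 22 of 33 higher, with a median of 0.115. Leaving out H2BK120R replicate 1 gave 0.24, and leaving out vector replicate 2 gave 0.31, each with 26 of 33 higher. For 9 of its members both arrays with the mutant lay above both vector arrays, and for 3 below both. Of all probe sets 18.6% lay above and 17.9% below in this way. The run from ZNF283 to ZNF180, which holds ZNF224 and ZNF45, had 17 of 20 members higher, with a median difference of 0.14. Here the arrays deviated by -0.04 and 0.20 with H2BK120R, against -0.19 and 0.03 with the vector, and the groups overlapped. Without vector replicate 1 its count was 12 of 20 and its median 0.06, and without H2BK120R replicate 2 its median was 0.05. ZNF221 and ZNF229, the members farthest apart in this run, differed by 0.60 and -0.73.

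The other 4 long runs had smaller shares of higher members than these. The run from ZNF577 to ZNF331 had 21 of 34 members higher and a median difference of 0.12, which was 0.03 without H2BK120R replicate 2. Both arrays with the mutant lay above both vector arrays for 10 of its members, ZNF880, ZNF611 and ZNF888 among them, and below both for 0, where 18.6% of all probe sets lay above and 17.9% below. Averaged over the run, the arrays deviated by -0.01 and 0.11 with H2BK120R, against -0.01 and -0.09 with the vector. H2BK120R replicate 1 and vector replicate 1 were thus level, and the groups were not separated. The run from ZNF565 to ZNF573 had 15 of 22 higher and a median of 0.09, and its arrays were separated upwards for 7 members and downwards for 0. Its median was 0.16 without H2BK120R replicate 1 and 0.17 without vector replicate 2. Without H2BK120R replicate 2 it was 0.08 with 12 of 22 higher, and without vector replicate 1 again 0.09 with 14 of 22 higher. Its arrays deviated on average by -0.05 and 0.09 with H2BK120R, against -0.03 and -0.01 with the vector, so the groups overlapped. In the run from ZNF264 to ZNF8, 18 of 35 were higher with a median of 0.01, which turned to -0.06 without vector replicate 1. The run from ZNF627 to ZNF791 had 11 of 24 higher and a median of -0.07, which turned to 0.05 without vector replicate 1. It included ZNF491, ZNF878 and ZNF709, named above on the lower side, and ZNF490 on the higher side at 10.96 and 11.02 with H2BK120R, against 10.47 and 10.77 with the vector. The 26 members outside the runs were 13 higher and 13 lower. Neighbours in a run are close copies, so their probe sets may read each other's transcripts and their values are not independent.

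**Figure D3:**
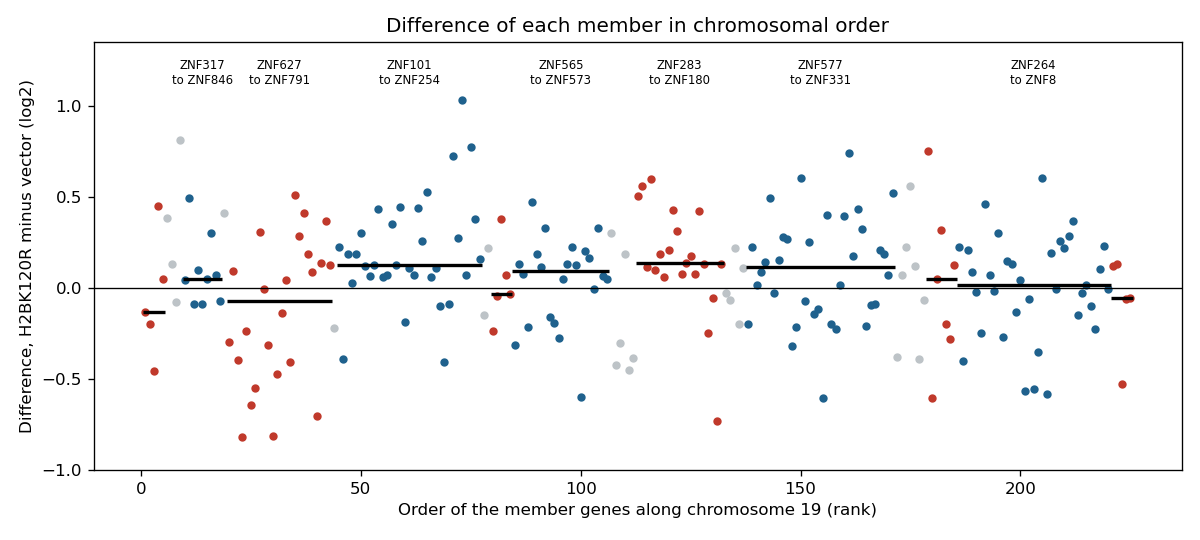
Difference between H2BK120R and vector (vertical axis, log2) for each of the 225 members in their order along chromosome 19 (horizontal axis, rank). Alternating red and blue points stand for the 11 runs of neighbours, grey points for members outside them and black lines for the median of a run. The run from ZNF101 to ZNF254 has 28 of 33 points above 0.

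**Figure D4:**
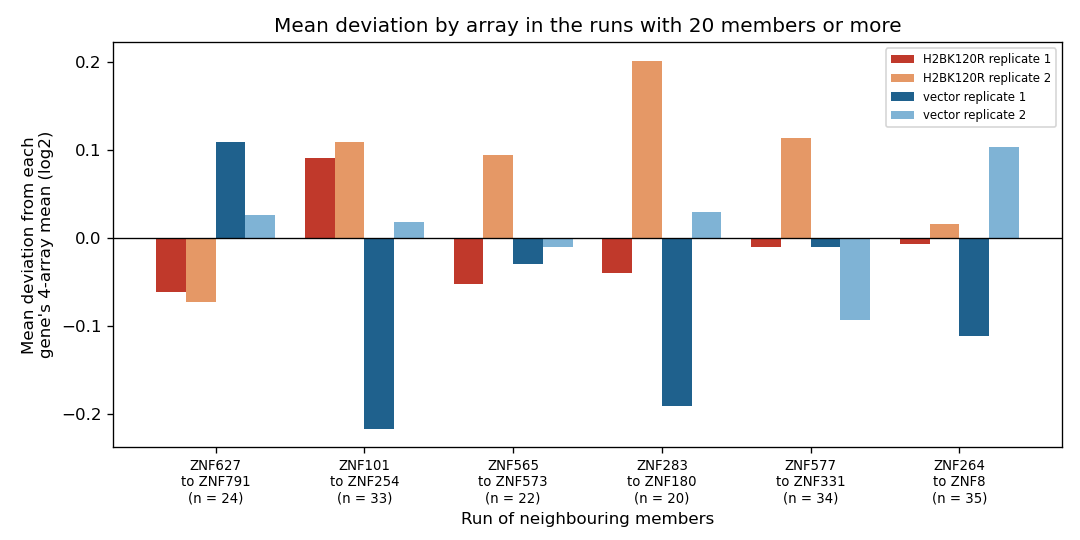
Mean deviation from each gene's mean over the 4 arrays (vertical axis, log2) in the 6 runs with 20 members or more (horizontal axis). Bars stand for arrays, with H2BK120R in red and orange and vector in dark and light blue. Vector replicate 1 is the lowest array in the runs from ZNF101 to ZNF254, from ZNF283 to ZNF180 and from ZNF264 to ZNF8, at -0.22, -0.19 and -0.11.

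The members' differences were also set beside the shared promoter word. The 41 members with the 10-base word TCCAATCAGG had a median difference of 0.11 with 30 higher, and the 156 with a promoter but without the word had a median of 0.07 with 91 higher. In the run from ZNF101 to ZNF254, 24 of 26 promoters held the word and 28 of 33 members were higher. In the run from ZNF627 to ZNF791, 14 of 23 promoters held it and 11 of 24 members were higher. It was found in 0 of 16 promoters of the run from ZNF283 to ZNF180, with 17 of 20 higher. These run counts take in members without the word or without a listed promoter. The part of the word in the lean was not tested.

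The proteins through which KRAB zinc fingers act were measured for 27 of 30 listed genes. Of these 17 were higher with H2BK120R, 9 lower and 1 equal, with a median difference of 0.10, against 0.00 over all probe sets. At an adjusted p of 0.05 in limma 0 passed, and 2 of 27 had an unadjusted p under 0.05, both higher, where 6.7% of all probe sets had one. That count was 0 without either H2BK120R array and 0 with a flat prior variance. TRIM28, the KRAB scaffold, was at 13.70 and 13.50 with H2BK120R, against 13.81 and 13.76 with the vector. Both arrays with the mutant were below both vector arrays, by a difference of -0.18 ± 0.12 (limma adjusted p = 0.792), which was -0.085 without H2BK120R replicate 2. SETDB1, the H3K9 methyltransferase that TRIM28 recruits, was at 10.57 and 10.68 with H2BK120R, against 10.70 and 10.55 with the vector, with a difference of 0.00. ATF7IP, the partner that stabilises SETDB1, was at 12.91 and 13.08 with H2BK120R, against 12.59 and 12.85 with the vector.

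The 2 genes of this list with an unadjusted p under 0.05 were TASOR and MBD1. TASOR, a subunit of the HUSH silencing complex, was at 11.57 and 11.58 with H2BK120R, against 11.12 and 11.19 with the vector, a difference of 0.42 ± 0.14 (limma adjusted p = 0.722). MBD1, a methyl-CpG binding protein, was at 9.83 and 9.81 with H2BK120R, against 9.42 and 9.34 with the vector, a difference of 0.44 ± 0.18 (limma adjusted p = 0.745). The groups did not overlap for either gene. The DNA methyltransferase DNMT3A and the H3K9 methyltransferase SUV39H2 differed by 0.41 ± 0.21 and 0.26 ± 0.18, and that of SUV39H2 was 0.125 without H2BK120R replicate 2. The HP1 genes CBX1 and CBX3 differed by -0.07 ± 0.13 and -0.03 ± 0.11. All of these errors are limma standard errors.

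**Figure D5:**
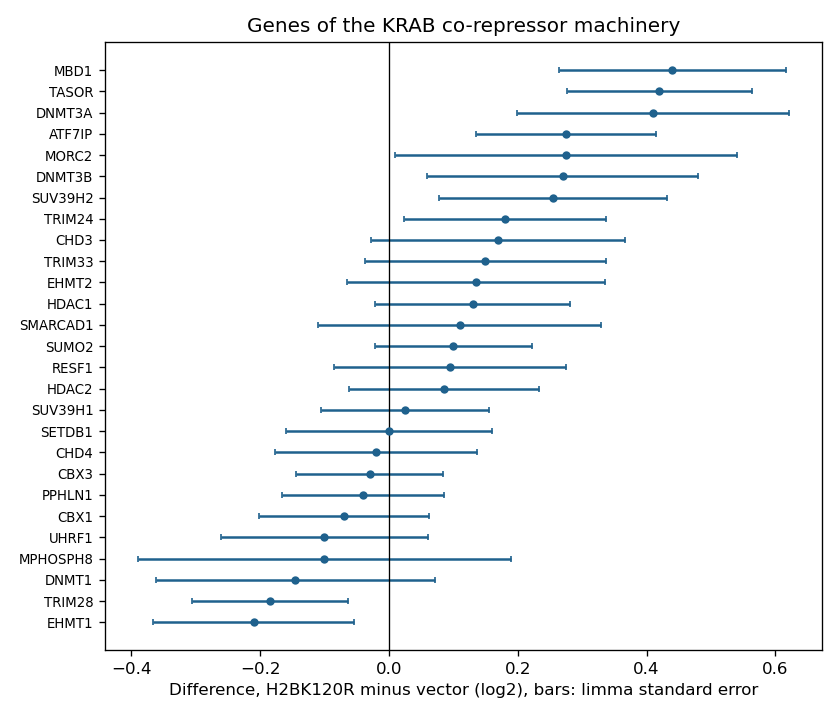
Difference between H2BK120R and vector (horizontal axis, log2) for the 27 measured genes of the KRAB co-repressor list (vertical axis), with bars for limma's standard error. MBD1, TASOR and DNMT3A lie highest at 0.44, 0.42 and 0.41, and EHMT1 and TRIM28 lowest at -0.21 and -0.18.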

How the data were processed

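Total RNA of 4 A549 samples was measured on an Affymetrix whole-transcript array. The deposited table holds 1 log2 value per probe set and array, normalized between arrays by the authors. The base and the normalization are inferred from the range of 1.56 to 19.15 and the near-equal medians. MAS5 was used, per the submitters' processing notes, which give no version. That method is not the usual one for whole-transcript arrays, so how the values were made is uncertain. If the base were another one, all differences would scale by 1 factor. Groups came from the sample titles. Gene symbols came from the annotation of the array platform held by GEO, and all 225 member symbols matched RefSeq (GRCh38.p14) by gene ID. That table served for gene order and promoters only, since no build is named for the values.

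All probe sets were fitted by lmFit and trended eBayes of limma 3.58.1 under R 4.3.3, without a covariate, two-sided, with Benjamini-Hochberg adjustment over 21448 probe sets. The fit had 2 residual and 8.95 prior degrees of freedom and was tested on simulated data. Errors of differences are limma standard errors. Figures used Python 3.11.15 and matplotlib 3.10.9. Named members were the 12 with the smallest p on each side among those whose groups did not overlap, the 10 brightest, the 5 dimmest, those with a listed role and the ends of runs. Of the co-repressor list the 6 with the smallest p were named. SETDB1, CBX1, CBX3, EHMT1 and further members of a run were added after their values were seen, as were the limit of 3 genes between neighbours, the olfactory receptor range and the 10-base word. The members and lists were chosen with earlier results of these data known. For arrays, their number limits the precision.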

Additional observations from a re-analysis of the deposited data

How the results depend on the processing

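In limma 0 members had an adjusted p under 0.05 with any of the alternatives run. These were quantile normalization, arrays centred on their medians, filters on the dimmest 25% and 50%, a table restricted to probe sets naming 1 gene, a flat or a robust prior variance, the replicate block, and each array removed in turn. At an unadjusted p under 0.05 in limma there were 16 members as reported. Without the dimmest 50% there were 10 of 121 members (8.26%), where 8.42% of all probe sets left by the filter passed. With the replicate block there were 21 (9.33%), where 8.61% of all probe sets passed. With 3 arrays the count ran from 4 to 27: it was 4 when H2BK120R replicate 2 was missing, 5 for H2BK120R replicate 1, 6 for vector replicate 1 and 27 for vector replicate 2. The shares of all probe sets moved likewise, at 2.31%, 3.47%, 5.43% and 11.3%, beside 1.78%, 2.22%, 2.67% and 12% of members. The lone array of a group is then assumed to vary like the other group. The labels do not pair the replicate numbers. The deviations of same-numbered arrays correlated at 0.14 over all probe sets and -0.05 over members. The block changed no member's call at an adjusted p of 0.05 in limma. With it 3 genes of the co-repressor list had an unadjusted p under 0.05, against 2 as reported. The members' median difference was between 0.03 and 0.14 with 1 array left out. The members whose groups did not overlap numbered 49 of 121 (40.5%) without the dimmest 50%, against 81 of 225 (36.0%) as reported. The share over all probe sets left by that filter was not computed, so this rise cannot be read as a result about the members. At an unadjusted p under 0.05 in limma the share of all probe sets rose with that filter, from 6.7% to 8.42%. Beyond 2-fold lay 1 member. Of the co-repressor list 0 genes had an unadjusted p under 0.05 with a flat prior variance (eBayes with no trend), and between 0 and 2 with 1 array left out. With neighbours up to 5 genes apart there were again 11 runs. Of 44 genes followed, 6 changed sign in 9 of 509 values and 0 passed. With 1 array left out the difference of ZNF649 ran from -0.075 to 0.525 and was -0.04 without vector replicate 2, and that of ZNF350 ran from -0.19 to 0.37. ZNF808 ran from -0.24 to 0.01, ZNF304 from -0.145 to 0.105 with 0.025 without H2BK120R replicate 1, ZNF154 from -0.075 to 1.285, and ZNF274 from -0.455 to 0.665 with -0.11 without H2BK120R replicate 1. Beyond the smaller number of arrays or probe sets, the cause was not tested. The planned pseudocount change does not apply to log2 values, and since each gene had 1 probe set, averaging probe sets changed no value. Array number limits what could be seen: the 95% interval reached 0.61 to either side at the median over members.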
